A study of Mus musculus with 8 samples.

Results

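The 10 genes described here are Arg1, Mrc1, Spp1, Retnla, Cd163, Trem2, Gpnmb, Il10, Folr2 and Mgl2, which are commonly read as marks of tumor-associated or M2-type macrophages. They form a list of names with no threshold on measured values, and all 10 were found among the 54532 genes of the count table. RNA-seq was performed on poly(A) RNA from whole lungs of 8 CC-LR mice, with 1 library per mouse. In CC-LR mice (C57BL/6), Cre made from the locus of club cell secretory protein, or CCSP, removes the stop cassette of LSL-K-ras G12D, and the epithelial cells that then express the mutant oncogene give rise to lung tumors. The 4 Control mice and the 4 TTI-101 mice shared this genotype and were 14 weeks old, and the TTI-101 mice had received TTI-101, an inhibitor of STAT3, during the last 4 weeks, starting at the age of 10 weeks. The labels do not give the route or dose of TTI-101 for these mice, or whether the Control mice received vehicle. By the study's methods, lungs frozen for RNA came from mice whose airways had been washed out for lavage fluid and whose lungs had been perfused, and lavage removes airspace cells.

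Macrophages of the lung include alveolar macrophages, which live in the airspaces and recycle surfactant, and interstitial macrophages, which lie in the tissue around airways and vessels. Signals through the IL-4 receptor and STAT6 are known to raise Arg1, Mrc1, Retnla and Mgl2, and these genes came to define the M2 or alternatively activated state. In tumors, a second set that includes Spp1, Trem2 and Gpnmb marks lipid-laden macrophages, while Folr2 and Cd163 mark resident macrophages around vessels. IL-10 is a cytokine that signals through STAT3 and restrains inflammatory gene expression.

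No difference between TTI-101 and Control lungs was established for any of the 10 genes, and the groups overlapped for every one. Of the 9 members with enough counts to test, 0 passed an adjusted p of 0.05 in edgeR's quasi-likelihood test, where 0 of all 17138 genes tested passed (0%). At an unadjusted p under 0.05 the count of members was again 0, against 1132 of all genes tested (6.61%), and DESeq2's Wald test and limma-voom also gave 0 members there. In 0 of the 9 did the levels of the 4 TTI-101 mice lie wholly apart from those of the 4 Control mice, against 508 of all genes (2.96%). Spp1 and Gpnmb had the higher mean level in TTI-101 lungs and the other 7 the lower one, with a median log2 fold change of -0.27 over the members and 0.0034 over all genes, of which 49.4% were lower. What varied was the level between mice of one group, and 3 mice stood out: TTI-101 mouse 2 for Retnla, Control mouse 1 for Gpnmb and Control mouse 4 for Spp1 and Arg1. A whole lung mixes many cell types, so fewer macrophages and less RNA per macrophage cannot be told apart in any value given here.

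Library totals of Control mice ranged from 16446481 to 26873509 counts, and those of TTI-101 mice from 16075855 to 25920509. Control mouse 4 stood apart from the other 7 mice on the first principal component, and 5.56% of its counts were mitochondrial against 2.01% to 2.85% elsewhere. The labels name no batch. Values are CPM, which are counts divided by the TMM-scaled total of the library, unless another scale is named. A count of 3, taken as the floor of detection for counting error alone, corresponded to 0.110 to 0.192 CPM.

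**Figure D1:**
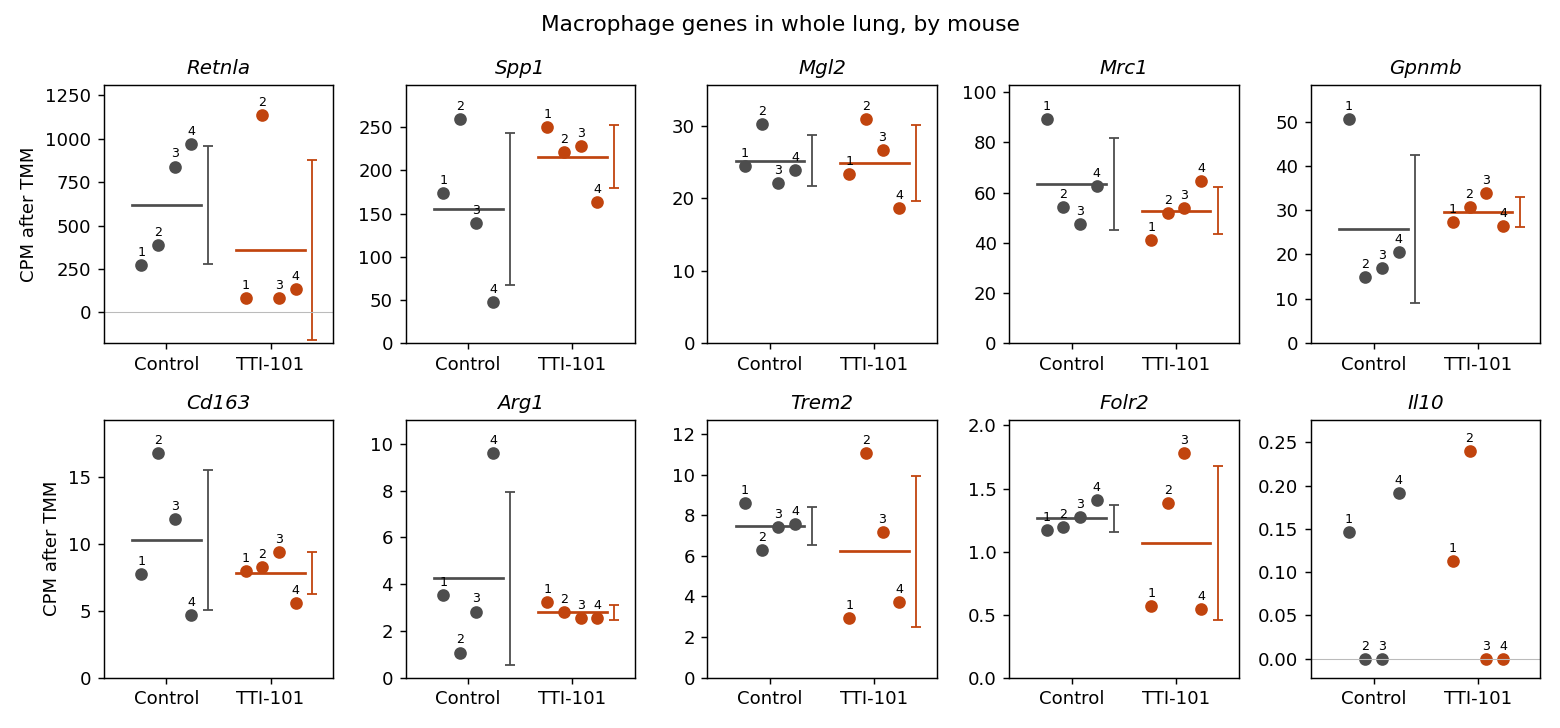
CPM of the 10 genes (y axis, linear, a separate scale for each gene) in Control and TTI-101 mice (x axis). Each point is 1 mouse with its replicate number, the horizontal line is the group mean and the bar beside it the SD (n = 4), both left out for Il10, which had at most 4 counts in a library. Retnla shows 3 low TTI-101 mice and 1 at 1139 CPM, and the groups overlap in every panel.

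Compared per length of transcript, the members spanned a wide range. On the TPM scale, Retnla had the highest mean level over the 8 mice, 1992 TPM, which placed it 32nd among the 31830 genes with at least 1 count. Spp1 followed at 302 TPM, then Mgl2 at 31.4, Mrc1 at 24.1, Gpnmb at 11.3, Cd163 at 4.34, Arg1 at 3.98, Trem2 at 3.56, Folr2 at 1.94 and Il10 at 0.166 TPM. The ranges over mice did not overlap between Spp1 and Mgl2 or between Folr2 and Il10, and every other pair of neighbours in this order overlapped. Mrc1 was above Gpnmb and Trem2 above Folr2 in 8 of 8 mice, while Cd163 exceeded Arg1 in 5 of 8 and Arg1 exceeded Trem2 in 3 of 8, so that the order of Cd163, Arg1 and Trem2 was not fixed. Retnla was above Spp1 in 7 of 8 mice, the exception being TTI-101 mouse 1 with 397 TPM of Retnla and 434 TPM of Spp1. TTI-101 mouse 3 was close to this, with 378 TPM of Retnla and 376 TPM of Spp1.

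Retnla (ENSMUSG00000061100, chromosome 16 of GRCm38, 48842551 to 48844461, plus strand) encodes resistin-like alpha, also called FIZZ1 or RELMα, a secreted protein that IL-4 and IL-13 induce in macrophages and that airway and alveolar epithelium also makes in allergic lungs. The 250 bases before its RefSeq start are shown because Retnla had the widest spread of the members and because this window alone among those of the members held a paired motif of the kind that STAT proteins bind, TTC followed by GAA. The RefSeq start lies downstream of the Ensembl start at 48842551, so the last bases shown lie inside the gene as given above. The motif, at 48842464 to 48842473, lies before both starts. The sequence is that of RefSeq on GRCm38.p6, chr16:48842359-48842608, plus strand, with the motif in capitals.
Retnla promoter: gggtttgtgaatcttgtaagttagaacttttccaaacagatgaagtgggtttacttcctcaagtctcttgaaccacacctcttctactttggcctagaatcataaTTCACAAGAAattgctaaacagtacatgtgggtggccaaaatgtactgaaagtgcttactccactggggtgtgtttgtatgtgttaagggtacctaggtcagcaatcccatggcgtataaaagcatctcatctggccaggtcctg
The capitals begin 145 bases before the RefSeq start and hold TTC and GAA with 4 bases between them, a spacing that STAT6 prefers. Both spacings of 3 and 4 bases were searched, and because the motif reads the same on both strands a search of one strand covers both. Windows of 300 bases, 250 before and 50 after a start, were in the table for 8 of the 10 members, with none for Arg1 and Il10. The Retnla window was the only one of the 10 windows of these 8 genes with a match. Among all 32851 promoter windows of the table, 6.95% held the motif with 4 bases between and 8.30% with 3, and a match of letters is not a bound site.

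Retnla was at 270.6, 388, 840 and 970.6 CPM in Control mice 1 to 4 and at 83.0, 1139, 83.7 and 134 CPM in TTI-101 mice 1 to 4. Thus 3 of the 4 TTI-101 mice lay below every Control mouse and TTI-101 mouse 2 lay above every one, 8.50-fold over the next highest treated mouse. The group means were 617 ± 340 CPM in Control and 360 ± 520 CPM in TTI-101 lungs (SD, n = 4). The log2 fold change was -0.78 (standard error 0.83, 95% interval -2.61 to 1.05), and edgeR gave an unadjusted p of 0.367 and an adjusted p of 0.782. The mean difference of log2 CPM, in which a single high mouse weighs less, was -1.58, with p = 0.171 in a two-sided exact permutation test over the 70 assignments of mice. Without TTI-101 mouse 2, the log2 fold change was -2.61 (unadjusted p = 0.000219, edgeR), and its adjusted p over all genes was 0.280. Without any other mouse it lay between -1.03 and -0.45, and 0 of these fits passed an adjusted p of 0.05. The estimate also moved with every mouse kept. It was -1.59 in limma-voom (unadjusted p = 0.0738, adjusted p = 0.653). In edgeR with the replicate number as a block it was -1.78 (unadjusted p = 0.0752, adjusted p = 0.577).

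The summed level of epithelial genes had an order over the mice similar to that of Retnla, though no correlation between them was computed. The summed level of 9 lung epithelium genes, among them Sftpc of alveolar type 2 cells and Scgb1a1 of club cells, was 48527, 52060, 66430 and 85618 CPM in Control mice 1 to 4 and 41012, 65138, 39441 and 34127 CPM in TTI-101 mice 1 to 4. As with Retnla, TTI-101 mice 1, 3 and 4 were the lowest, Control mouse 1 came next, and TTI-101 mouse 2 lay near Control mouse 3, though for Retnla it was above all Control mice. By the mean log2 CPM of these genes the same TTI-101 mice were lowest, but Control mouse 2 (10.31) came next, before Control mouse 1 (10.37). Of the 9 epithelial genes, 8 had a lower mean in TTI-101 lungs and 4 were at an unadjusted p under 0.05, with a median log2 fold change of -0.52. Without Control mouse 4 the median was -0.27 with 0 of the 9 at an unadjusted p under 0.05, and without TTI-101 mouse 1, 3 or 4 that count was 0 as well. In these 4 fits the count over all genes fell too, from 1132 to 531, 711, 422 and 758. A fit with the replicate number as a block also gave 0, with a median of -0.49. With the mean log2 CPM of these epithelial genes subtracted in each mouse, a comparison chosen after seeing the data, the Retnla difference was -1.19 on the log2 scale (two-sided exact permutation p = 0.200). The part of the epithelial share of the RNA in the Retnla levels was not tested further. The genes whose pattern over the 8 mice was nearest to that of Retnla, by the mean absolute difference of centred log2 CPM among 15885 genes, were Tmc5 (0.41), Gp2 (0.43) and Btbd17 (0.45). Tmc5 was at 6.38, 7.95, 12.9 and 16.2 CPM in Control mice 1 to 4 and at 2.86, 18.6, 2.33 and 4.62 CPM in TTI-101 mice 1 to 4. It thus had the same 3 low treated mice and the same high one, though these 3 genes were chosen for their likeness and a mean difference of 0.41 is not a close match.

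Among genes of type 2 immunity, the setting in which Retnla is best known, Il4 was at 3.64 ± 0.919 CPM in Control and 3.41 ± 0.524 CPM in TTI-101 lungs (SD, n = 4), and Il13 was under the filter. The 6 genes of type 2 innate lymphoid cells, which release IL-5 and IL-13, had a median log2 fold change of 0.016, with Klrg1 higher and Areg lower at an unadjusted p under 0.05 in edgeR and 0 at an adjusted p.

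Spp1 (ENSMUSG00000029304, chromosome 5, 104435118 to 104441050, plus strand) encodes osteopontin, a secreted ligand of integrins and CD44. Its level was 174, 260.1, 139 and 47.6 CPM in Control mice 1 to 4 and 249.8, 221, 229 and 164 CPM in TTI-101 mice 1 to 4. All 4 TTI-101 mice lay above the Control mean, but Control mouse 2 was the highest of all 8. The means were 155 ± 87.9 CPM and 216 ± 36.8 CPM (SD, n = 4), a log2 fold change of 0.48 (standard error 0.39, 95% interval -0.39 to 1.35, edgeR adjusted p = 0.721). The log2 fold change was 0.19 without Control mouse 4, which was lowest, and 0.85 without Control mouse 2 (unadjusted p = 0.0478, adjusted p = 0.676, edgeR). Control SD on the log2 scale was 1.05 and TTI-101 SD 0.26. A same-strand gene model, Gm42793, overlaps Spp1 and shares 11.6% of the 50-base stretches of its transcripts, but it held 73 counts over all libraries.

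Spp1 was lowest in Control mouse 4, which was also lowest in the summed level of adipocyte, cardiomyocyte, mesothelium, B cell, T cell, neutrophil and dendritic cell genes. The summed alveolar macrophage list was lowest in this mouse too, at 503.5 CPM against 551 to 1320 CPM in the other 7 mice. Other lists went the opposite way: the summed lung epithelium, macrophage core, monocyte, type 2 innate lymphoid cell and hepatocyte genes were highest in Control mouse 4. Among these, by mean log2 CPM only the lung epithelium and hepatocyte lists were highest in it, and the monocyte list was lowest. For cardiomyocyte genes Control mouse 4 was at 13.2 CPM against 243 to 1121 CPM in the other 7 mice, and for mesothelium genes at 14.8 against 76.3 to 199 CPM. The summed level of 6 adipocyte genes, such as Adipoq and Plin1, was 55.2, 90.0, 24.2 and 9.59 CPM in Control mice 1 to 4 and 125, 217, 175 and 36.9 CPM in TTI-101 mice 1 to 4, with Lep under the filter. Among 72 relations computed between members and between members and 4 cell type lists, that of Spp1 with the adipocyte mean had the lowest p (r = 0.88, exact permutation p = 0.0018, adjusted p = 0.0875, rho = 0.79 with exact permutation p = 0.0279 and adjusted p = 0.662, n = 8). Without Control mice 3 and 4, the mice farthest from the median of Spp1, r was 0.73. None of the 72 passed an adjusted p of 0.05, and 8 were under 0.05 unadjusted. The genes nearest to the pattern of Spp1 were Fibin (0.12), Slc47a1 (0.14) and Ndrg2 (0.15), as the mean absolute difference of centred log2 CPM. Fibin was at 13.8 CPM in Control mouse 4 and between 46.4 and 94.4 CPM in the other 7. Of the lists with their lowest sum in Control mouse 4, only the adipocyte and alveolar macrophage ones were among the relations computed. With the alveolar macrophage mean, Spp1 had r = 0.53 (exact permutation p = 0.186, adjusted p = 0.704), and r = -0.52 without Control mice 3 and 4. The part of any of these lists in the Spp1 values was not tested.

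Gpnmb (ENSMUSG00000029816, chromosome 6, 49036546 to 49070929, plus strand) encodes a transmembrane glycoprotein of lysosomes and melanosomes that lipid-laden macrophages express strongly. It was at 50.7, 14.8, 16.9 and 20.5 CPM in Control mice 1 to 4 and at 27.2, 30.7, 33.9 and 26.4 CPM in TTI-101 mice 1 to 4. Every TTI-101 mouse lay above Control mice 2, 3 and 4 and below Control mouse 1. The means were 25.7 ± 16.8 and 29.5 ± 3.42 CPM (SD, n = 4), a log2 fold change of 0.19 (standard error 0.35, 95% interval -0.58 to 0.97, edgeR adjusted p = 0.876). Without Control mouse 1 the log2 fold change was 0.76 (unadjusted p = 0.0020), with an adjusted p of 0.284 in edgeR, and without Control mouse 2, 3 or 4 it was 0.0094, 0.038 or 0.11. Control mouse 1 also had the highest summed level of the alveolar macrophage list, 1320 CPM, where the other 7 mice ranged from 503.5 to 964 CPM, but 839.7 CPM of it was Chil3. By the mean log2 CPM of the list, TTI-101 mouse 3 was highest at 4.64 and Control mouse 1 next at 4.51. Over the 8 mice, Gpnmb and the mean of that list had r = 0.77 (exact permutation p = 0.0260, adjusted p = 0.268, rho = 0.81 with exact permutation p = 0.0218 and adjusted p = 0.662), and r = 0.71 without Control mice 1 and 2. Melanocytes also use Gpnmb, and of 5 melanocyte genes Tyr, Dct and Tyrp1 were under the filter, with Tyrp1 at 0 counts in every library. Pmel, at 2.76 CPM in Control and 3.85 CPM in TTI-101 lungs, and Mlana, at 1.72 and 1.77 CPM, passed it. The summed melanocyte list lay between 4.24 and 5.33 CPM in Control and between 5.003 and 6.78 CPM in TTI-101 mice, and its part in the Gpnmb levels was not tested. Syt6 (0.11), Il12rb1 (0.18) and Olr1 (0.19) were nearest in pattern.

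Trem2 (ENSMUSG00000023992, chromosome 17, 48346401 to 48354147, plus strand), a lipid-sensing receptor that signals through TYROBP and SYK, was at 8.62, 6.28, 7.43 and 7.55 CPM in Control mice 1 to 4. In TTI-101 mice 1 to 4 it was at 2.94, 11.05, 7.17 and 3.71 CPM. The Control mice were close together and the TTI-101 mice lay on both sides of them, with mice 1 and 4 low and mouse 2 high. The log2 fold change was -0.27 (standard error 0.38, 95% interval -1.12 to 0.57, adjusted p = 0.838 from edgeR), from means of 7.47 ± 0.959 and 6.22 ± 3.71 CPM (SD, n = 4). It was -0.70 without TTI-101 mouse 2 and -0.03 without TTI-101 mouse 1.

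Folr2 (ENSMUSG00000032725, chromosome 7, 101839988 to 101857194, minus strand), the folate receptor of resident macrophages, was at 1.17, 1.196, 1.28 and 1.41 CPM in Control mice 1 to 4 and at 0.565, 1.38, 1.78 and 0.547 CPM in TTI-101 mice 1 to 4. The same TTI-101 mice 1 and 4 were low, from 15 and 9 counts. The means of 1.26 ± 0.106 and 1.07 ± 0.613 CPM (SD, n = 4) gave a log2 fold change of -0.25 (standard error 0.44, 95% interval -1.23 to 0.73, adjusted p = 0.874 from edgeR), which was -0.61 without TTI-101 mouse 3 and -0.02 without TTI-101 mouse 1. The antisense gene Gm10602 overlaps Folr2 and held 244 counts over all libraries, where Folr2 held 176. The library kit keeps the strand, but whether the counting used it is not given in the sources used here.

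Trem2 and Folr2 were lowest in the mice in which the mean of 12 core macrophage genes, among them Cd68, Csf1r and C1qa, was lowest. Not every gene of the list followed its mean. Csf1r was lowest in a Control mouse, at 67.9 CPM, where the lowest TTI-101 mouse was at 106.6 CPM. Cd68 (20.9 against 23.1 CPM) and Mertk (21.6 against 37.4 CPM) were also lowest in a Control mouse, and the other genes of the list in a TTI-101 mouse. The mean log2 CPM of this core list was 5.68, 5.40, 5.55 and 5.52 in Control mice 1 to 4 and 5.01, 5.65, 5.79 and 5.22 in TTI-101 mice 1 to 4, lowest in the same mice 1 and 4. The group difference of -0.12 was within the spread (two-sided exact permutation p = 0.543). With the core list, r was 0.90 for Trem2 (exact permutation p = 0.0035) and 0.91 for Folr2 (exact permutation p = 0.0036), both with an adjusted p of 0.0875. Spearman's rho was 0.71 for Trem2 and 0.67 for Folr2, with exact permutation p of 0.0576 and 0.0831 and an adjusted p of 0.778 for both. Without TTI-101 mice 1 and 4, r fell to 0.45 for Trem2 and 0.62 for Folr2, so that both relations rested largely on these 2 mice. Trem2 against Folr2 gave r = 0.87 (exact permutation p = 0.0171, adjusted p = 0.258, rho = 0.52 with exact permutation p = 0.197 and adjusted p = 0.778) and r = -0.01 without those mice. The gene nearest to Trem2 in pattern was C1qb (0.13), a complement gene of macrophages that is on the core list, followed by Cxcl13 (0.17) and Fbxo2 (0.17). C1qb was at 19.8 and 24.9 CPM in TTI-101 mice 1 and 4, 64.1 and 44.9 CPM in TTI-101 mice 2 and 3 and 41.6 to 46.0 CPM in Control mice. For Folr2, Grhpr (0.16) and Tnnt1 (0.18) were nearest.

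**Figure D2:**
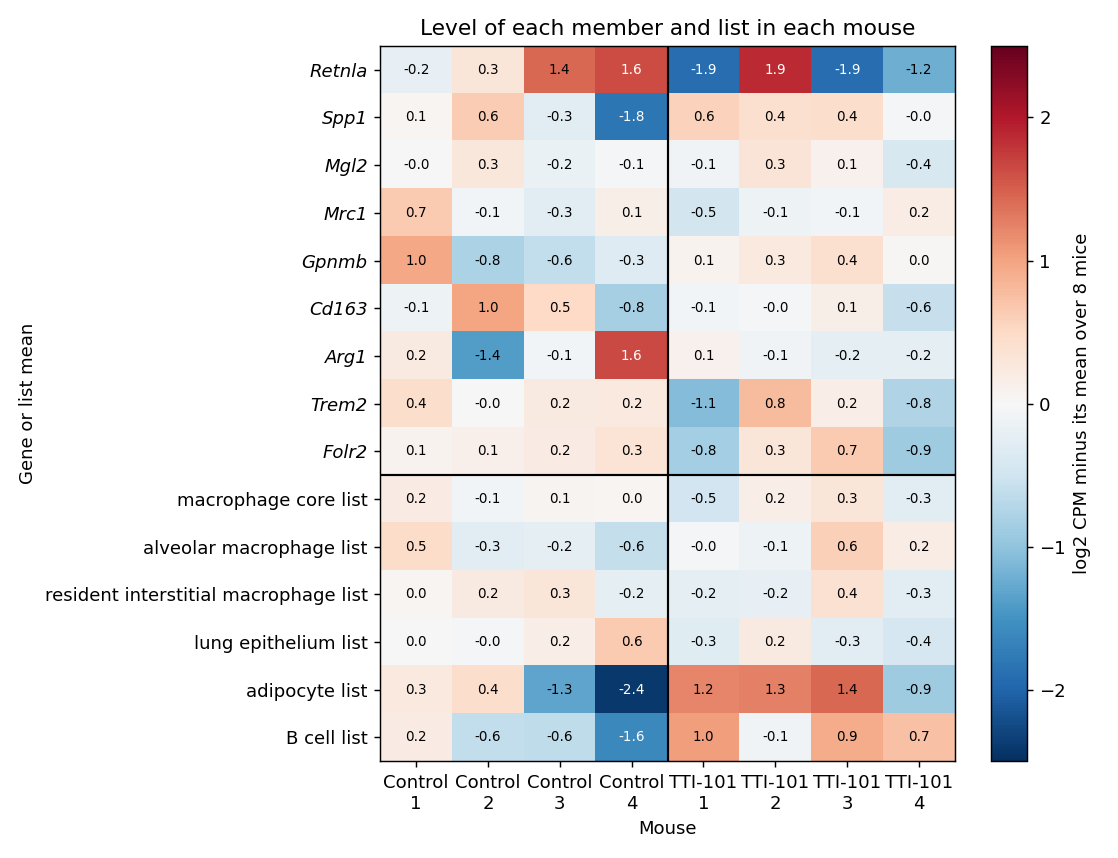
Log2 CPM minus its mean over the 8 mice (colour and printed value) for the 9 tested members and the means of 6 cell type lists (y axis) in each mouse (x axis). The vertical line divides Control from TTI-101 mice. Retnla and the lung epithelium list were both low in TTI-101 mice 1, 3 and 4, Spp1 and the adipocyte list were lowest in Control mouse 4, and Trem2, Folr2 and the macrophage core list were lowest in TTI-101 mice 1 and 4.

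Mrc1 (ENSMUSG00000026712, chromosome 2, 14229392 to 14332057, plus strand) encodes the mannose receptor CD206, which alveolar and M2-type macrophages carry. It was at 89.5, 54.3, 47.3 and 62.6 CPM in Control mice 1 to 4 and at 41.2, 51.6, 54.0 and 64.5 CPM in TTI-101 mice 1 to 4. Apart from Control mouse 1 the groups shared one range. The means of 63.4 ± 18.5 and 52.8 ± 9.55 CPM (SD, n = 4) gave a log2 fold change of -0.27 (standard error 0.21, 95% interval -0.74 to 0.21, adjusted p = 0.711 from edgeR), and this was -0.05 without Control mouse 1. Mir511, which lies in the gene, held 1 count. Mcoln3 (0.12), Gm43912 (0.12) and Fam110b (0.13) were nearest to Mrc1 in pattern.

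Mgl2 (ENSMUSG00000040950, chromosome 11, 70130329 to 70137550, plus strand) encodes the lectin CD301b of M2-type macrophages and of a class of dendritic cells. It was at 24.5, 30.3, 22.2 and 23.9 CPM in Control mice 1 to 4 and at 23.4, 31.0, 26.6 and 18.7 CPM in TTI-101 mice 1 to 4, the steadiest of the 9. Its means were 25.2 ± 3.52 and 24.9 ± 5.22 CPM (SD, n = 4), with a log2 fold change of -0.02 (standard error 0.18, 95% interval -0.43 to 0.39, adjusted p = 0.983 from edgeR). The sign is not settled, since with library totals in place of TMM the log2 fold change was 0.01. Its close relative Clec10a, which encodes CD301a and shares 270 of the 2205 50-base stretches of the Mgl2 transcripts, was at 6.59 ± 1.62 CPM in Control and 6.63 ± 2.53 CPM in TTI-101 lungs (SD, n = 4). Ccdc115 (0.058), Incenp (0.073) and Uros (0.080) were nearest to Mgl2 in pattern.

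Cd163 (ENSMUSG00000008845, chromosome 6, 124304656 to 124330527, plus strand), the scavenger receptor for hemoglobin bound to haptoglobin, was at 7.74, 16.7, 11.9 and 4.67 CPM in Control mice 1 to 4. The TTI-101 mice, at 7.99, 8.29, 9.34 and 5.595 CPM, all lay inside the Control range. The means of 10.3 ± 5.23 and 7.80 ± 1.58 CPM (SD, n = 4) gave a log2 fold change of -0.39 (standard error 0.36, 95% interval -1.18 to 0.40, adjusted p = 0.744 from edgeR). It was -0.05 without Control mouse 2 and -0.62 without Control mouse 4. With the mean of 10 resident interstitial macrophage genes, Cd163 had r = 0.74 (exact permutation p = 0.0378, adjusted p = 0.340, rho = 0.81 with exact permutation p = 0.0218 and adjusted p = 0.662), and 0.77 without Control mice 2 and 4. Isg15 (0.17), Msantd3 (0.18) and Gm4524 (0.19) were nearest in pattern.

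Arg1 (ENSMUSG00000019987, chromosome 10, 24915221 to 24927484, minus strand), the arginase that splits arginine into ornithine and urea, was at 3.52, 1.08, 2.83 and 9.59 CPM in Control mice 1 to 4, from 96, 18, 51 and 150 counts. The TTI-101 mice held 3.24, 2.82, 2.56 and 2.55 CPM, within the Control range and with a log2 SD of 0.16 against 1.25 in Control. The means were 4.26 ± 3.71 and 2.79 ± 0.324 CPM (SD, n = 4), and the log2 fold change was -0.60 (standard error 0.53, 95% interval -1.77 to 0.58, adjusted p = 0.740 from edgeR). Without Control mouse 4 it turned to 0.17, so that the lower mean rested on this mouse. Over the 8 mice Arg1 had a negative correlation with Spp1 (r = -0.84, exact permutation p = 0.0179, adjusted p = 0.258, rho = -0.52 with exact permutation p = 0.197 and adjusted p = 0.778) and to Cd163 (r = -0.82, exact permutation p = 0.0219, adjusted p = 0.263, rho = -0.57 with exact permutation p = 0.151 and adjusted p = 0.778). Without Control mice 2 and 4, r was 0.083 and 0.053, so that neither relation held. Nearest to Arg1 in pattern were 2610020C07Rik (0.25), Serpina3i (0.27) and Zfp618 (0.28).

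Il10 (ENSMUSG00000016529, chromosome 1, 131019845 to 131024974, plus strand) was below the filter on low counts. Its counts were 4, 0, 0 and 3 in Control mice 1 to 4 and 3, 4, 0 and 0 in TTI-101 mice 1 to 4, which sum to 7 in each group. No difference was detectable at this depth. Its receptor chains Il10ra, at 32.3 CPM in Control and 39.6 CPM in TTI-101 lungs, and Il10rb, at 69.9 and 63.3 CPM, were both well above the filter.

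**Figure D3:**
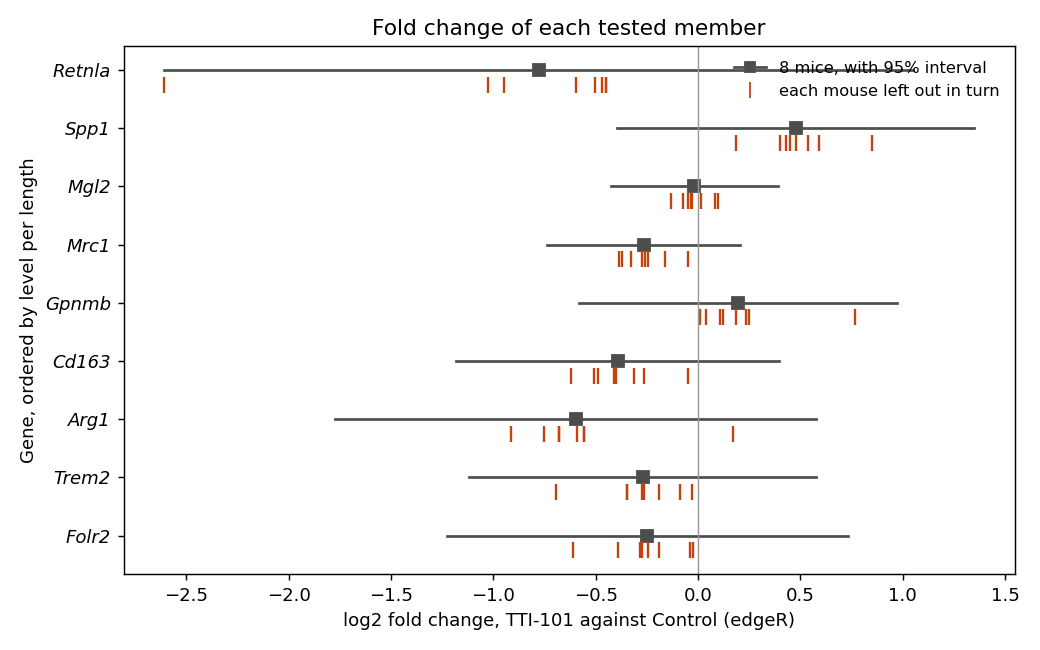
Log2 fold change of TTI-101 against Control (x axis, edgeR) for the 9 tested members, ordered by level per length (y axis). Squares and lines are the values over 8 mice with 95% intervals, and ticks are the fits with each mouse left out in turn. Every interval holds 0, and the tick for Retnla at -2.61 is the fit without TTI-101 mouse 2.

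Most members varied more between mice of one group than the median gene did. The SD of log2 CPM within groups was 1.42 for Retnla, at the 98.96th percentile of all genes tested, 0.89 for Arg1 (94.2nd) and 0.76 for Spp1 (90.3rd), against a median of 0.33 over all genes. Trem2, Cd163, Gpnmb and Folr2 lay between the 78.3rd and the 82.9th percentile, and Mrc1 (50.5th) and Mgl2 (34.2nd) were near or below the middle. Among the 500 genes nearest in level, Folr2 was at the 40.0th percentile, with a median SD of 0.62 for such genes, and Mgl2 at the 48.4th, while the other 7 members lay at the 75.8th or above. The 95% interval for Mgl2 spanned 0.743 to 1.31 times the Control level, while that for Retnla spanned 0.164 to 2.07 times.

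Relative to the core macrophage genes, 0 of the 9 members differed between groups at an exact p under 0.05. The mean log2 CPM of the core list was subtracted from each member in each mouse and the groups were compared by two-sided exact permutation tests, for which the smallest possible p is 0.0286. Spp1 (0.82 on the log2 scale, exact p = 0.257) and Gpnmb (0.50, exact p = 0.229) were higher relative to the core list in TTI-101 mice by mean, and Retnla (-1.46, exact p = 0.200), Trem2 (-0.32, exact p = 0.314) and Folr2 (-0.26, exact p = 0.314) lower. Mgl2 (0.088), Arg1 (-0.083), Mrc1 (-0.12) and Cd163 (-0.14) had exact p from 0.571 to 0.914. The groups overlapped for all 9. Lyz2, which alveolar type 2 cells transcribe too, made up 93.2% to 96.9% of the summed CPM of the core list, but it counts as 1 gene of 12 in its mean, and without it the differences kept their signs. With Cd68, Adgre1 and Csf1r alone as the reference, every difference was lower: Mgl2 turned to -0.29, Mrc1 was -0.50, Arg1 -0.46, Cd163 -0.52, Trem2 -0.70, Folr2 -0.64 and Retnla -1.84, and Spp1 was 0.44 and Gpnmb 0.12, with exact p from 0.114 to 0.657. When each mouse was left out in turn, 3 members reached p = 0.0286 in the exact test, the smallest that 4 against 3 mice allow. These were Spp1 at 1.19 without Control mouse 2, Gpnmb at 0.84 without Control mouse 1 and Trem2 at -0.58 without TTI-101 mouse 2. Retnla, at -2.27 without TTI-101 mouse 2, also separated fully, with an exact p of 0.0571. These p-values were not adjusted for the number of members and mice tried, and the share over all genes was not computed.

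The 3 lists of macrophage genes held 3 genes at an unadjusted p under 0.05, all in the resident interstitial list. Of the 12 core genes, 4 were higher and 8 lower in TTI-101 lungs, 0 at an unadjusted p under 0.05, with a median log2 fold change of -0.14. Its most abundant gene, Lyz2, the lysozyme of macrophages, was at 11240 CPM in Control and 8982 CPM in TTI-101 lungs. Of 12 tested alveolar macrophage genes, 9 were higher and 3 lower, 0 at an unadjusted p under 0.05, with a median of 0.26. Among them Chil3, the chitinase-like protein Ym1, was at 411 ± 287 CPM in Control and 442 ± 87.8 CPM in TTI-101 lungs (SD, n = 4). Without Control mouse 1 the median of this list was 0.50 and 3 of its genes were at an unadjusted p under 0.05. The count over all genes rose as well, to 2393 of 17406 in that fit from 1132 of 17138 with all mice. Of 10 resident interstitial genes, 6 were higher and 4 lower, with a median of 0.071. Stab1, a scavenger receptor also found on endothelium, was higher (log2 fold change 0.48, unadjusted p = 0.0321) and Pf4, a chemokine of platelets and macrophages (-0.85, unadjusted p = 0.0113), and Cbr2, a carbonyl reductase that club and type 2 cells express strongly (-0.71, unadjusted p = 0.0356), were lower, each at an adjusted p of 0.657 in edgeR. Cbr2 made up 76.2% to 90.3% of the summed CPM of that list.

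Genes upstream and downstream of the members were read from 7 pathway lists. Over these and the macrophage lists, 111 of 115 distinct genes were tested, 62 were higher and 49 lower, and 11 (9.91%) were at an unadjusted p under 0.05, against 6.61% of all genes, with 0 at an adjusted p of 0.05. In the list of alternative activation by IL-4 and IL-13, 13 of 16 tested genes were higher and 3 lower, with a median log2 fold change of 0.23, while Il13, Il13ra2 and Chil4 were under the filter. Il4ra, the shared receptor chain of both cytokines, was at 136 ± 18.1 CPM in Control and 174 ± 14.8 CPM in TTI-101 lungs (SD, n = 4), a log2 fold change of 0.36 (unadjusted p = 0.0277). Irf4, a transcription factor of B cells and of M2 polarization, was at 6.35 ± 2.05 and 11.5 ± 2.69 CPM (SD, n = 4), a log2 fold change of 0.85 (unadjusted p = 0.0110). Tgm2, a transglutaminase that M2-type macrophages and endothelium make, was at 219 ± 66.5 and 363 ± 95.2 CPM (SD, n = 4), a log2 fold change of 0.73 (unadjusted p = 0.0172). Each of these had an adjusted p of 0.657 in edgeR. Stat6 itself was at 163 and 179 CPM, with a log2 fold change of 0.13 (unadjusted p = 0.290, adjusted p = 0.742, edgeR). B cell genes moved beside Irf4: all 6 were higher at an unadjusted p under 0.05, with a median log2 fold change of 1.25 and summed levels of 83.7 to 232 CPM in Control and 211 to 437 CPM in TTI-101 mice. Their part in the Irf4 level was not tested.

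Of 15 genes of TREM2 signalling and lipid handling, 9 were higher and 6 lower, with a median of 0.18. Syk, the kinase downstream of TREM2 and of the B cell receptor, was at 58.1 ± 16.6 CPM in Control and 91.6 ± 21.5 CPM in TTI-101 lungs (SD, n = 4; log2 fold change 0.66, unadjusted p = 0.0203, adjusted p = 0.657, edgeR). Tyrobp, the adaptor of TREM2, was at 46.1 and 60.9 CPM (log2 fold change 0.40, unadjusted p = 0.217, adjusted p = 0.702, edgeR), and the most abundant genes of the list were Apoe, a lipid carrier, at 574 and 683 CPM, and Ctsb, a lysosomal protease, at 619 and 588 CPM. Of 8 osteopontin receptors, 5 were higher and 3 lower, with a median of 0.097. The integrin chains Itgb3 (log2 fold change 0.48, unadjusted p = 0.0152) and Itgb5 (0.47, unadjusted p = 0.0415) were higher, both at an adjusted p of 0.657 in edgeR. Cd44 was at 275.5 and 193 CPM (log2 fold change -0.51, unadjusted p = 0.0685, adjusted p = 0.657, edgeR), and Itgb1 was the most abundant, at 689 and 725 CPM.

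Of 9 genes of the IL-10 receptor and STAT3 output, 6 were higher and 3 lower, 0 at an unadjusted p under 0.05, with a median of 0.15. Stat3, which encodes the protein that TTI-101 inhibits, had 257 CPM in Control and 244 CPM in TTI-101 lungs, and its feedback inhibitor Socs3 at 66.9 and 64.1 CPM (log2 fold change -0.061, adjusted p = 0.955, edgeR). Arginine metabolism had 3 higher and 6 lower of 9 genes, with a median of -0.29. Slc7a2, a transporter that brings arginine into the cell, was at 59.3 and 42.2 CPM (log2 fold change -0.49, unadjusted p = 0.0198, adjusted p = 0.657, edgeR). Arg2, the mitochondrial arginase, was at 15.9 and 12.3 CPM, above Arg1 in CPM though not compared per length, and Oat was the most abundant at 373 and 305.2 CPM.

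Of 12 genes of classical or M1 activation, 5 were higher and 7 lower, with a median log2 fold change of -0.23. Cxcl9, a chemokine that interferon gamma induces, was at 3.43 ± 4.76 CPM in Control and 0.858 ± 0.476 CPM in TTI-101 lungs (SD, n = 4), with Control mice between 0.555 and 10.5 CPM (log2 fold change -1.999, unadjusted p = 0.0470, adjusted p = 0.657, edgeR). Nos2, the enzyme that competes with Arg1 for arginine, was at 5.46 and 6.53 CPM (log2 fold change 0.25, adjusted p = 0.834, edgeR). Irf5 and Ptgs2 were the most abundant, at 32.8 and 35.2 CPM in Control and 40.5 and 23.6 CPM in TTI-101 lungs. Of 10 genes of the CSF1, CSF2 and CCL2 axes, which recruit and maintain macrophages, 4 were higher and 6 lower, 0 at an unadjusted p under 0.05, with a median of -0.15. The most abundant was Csf2ra, at 73.2 and 86.7 CPM.

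**Figure D4:**
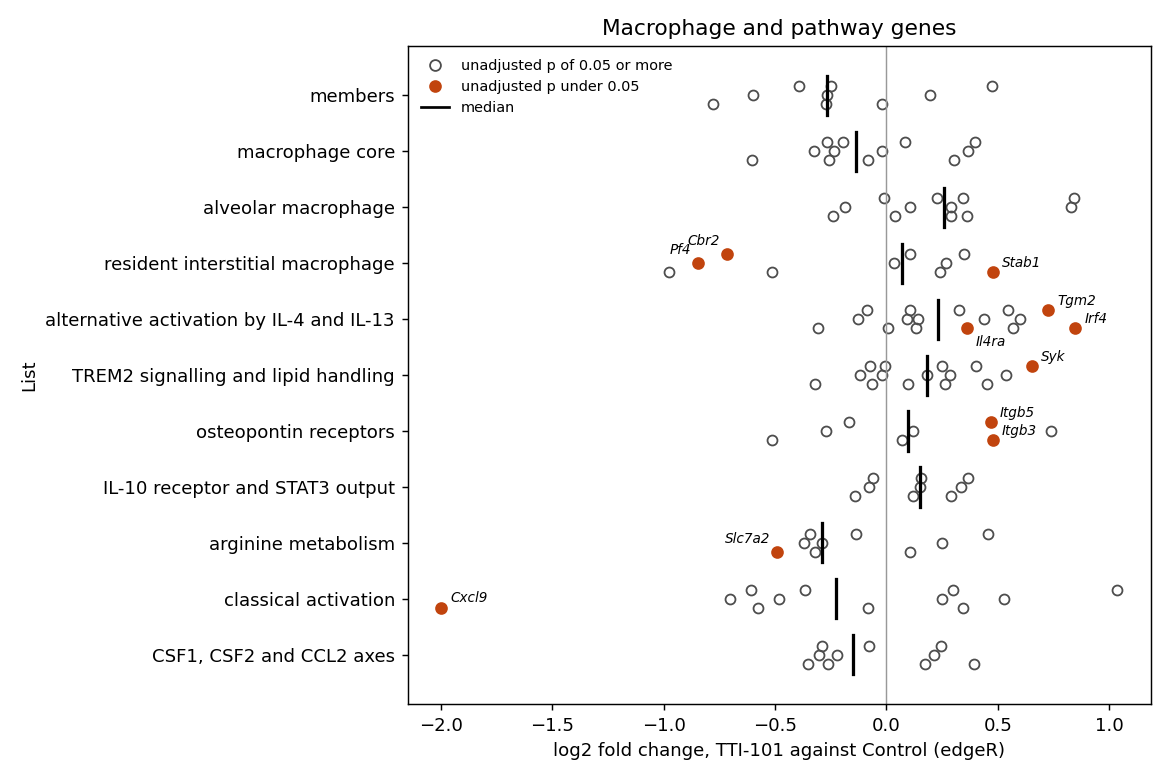
Log2 fold change of TTI-101 against Control (x axis, edgeR) for each tested gene of the members and of 10 macrophage and pathway lists (y axis). Filled points are genes at an unadjusted p under 0.05, open points the rest, and vertical bars the medians. The members hold 0 filled points, the median lies at -0.27 for the members and at 0.23 for the genes of alternative activation, and 0 points passed an adjusted p of 0.05.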

How the data were processed

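RNA-seq counts from whole lungs of 4 Control and 4 TTI-101 CC-LR mice were used. The authors deposited raw counts, whole numbers for each Ensembl gene. The labels name the TruSeq Stranded mRNA kit, and the submitters' processing notes name STAR, DESeq2 and mm10. The counting tool and its strand setting are not given in the sources used here. Paired ends of poly(A) libraries were read and processed by a sequencing company with its standard pipeline. All 10 members have the same coordinates in GENCODE M21 (GRCm38).

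In R 4.3.3, edgeR 4.0.16 kept 17138 genes by filterByExpr (minimum count 10), scaled libraries by TMM and compared the groups by robust quasi-likelihood F-tests with Benjamini-Hochberg adjustment over all genes tested. Log2 CPM used a prior count of 2, and TPM was computed from the deposited counts and gene lengths. Single values were compared by two-sided exact permutation tests over 70 assignments, with a smallest p of 0.0286, and correlations by exact permutation over 40320 pairings. The edgeR, limma-voom and DESeq2 fits were tested at their main settings on simulated data with large known changes, and the other settings were not. The simulated spread was capped, so this does not show recovery for genes as variable as Retnla, Arg1 or Spp1. Alternatives were DESeq2 1.42.0, limma-voom (limma 3.58.1), size factors of DESeq2, unscaled totals, no filter, a minimum of 10 counts per gene in each library, a replicate block and leaving out each library. The members and the 24 other lists were chosen with earlier results of these data known. Named beside the members were genes of the macrophage and pathway lists at an unadjusted p under 0.05 or of the highest level in their list, Stat3, and the 3 genes nearest to each member in pattern, of which 1 is not reported here. Tyrobp, Cd44, Stat6, Socs3, Arg2, Nos2, Ptgs2, Clec10a, Il4, Il10ra, Il10rb and the non-macrophage genes were named after their values were seen. The labels only number the lungs of a group, and that each came from a separate mouse is taken from the study, so p-values measure the spread between these samples. Intervals and floors cover counting error only where they come from counts.

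The replicate numbers were checked as pairs. Deviations of same-numbered mice from their group means correlated at 0.393, 0.082, 0.159 and 0.071, which is not above 0.1 in every pair, so the numbers were not used to pair mice. The value of 0.393 was the highest of all pairs of a Control and a TTI-101 mouse. Library totals also went by number, with mouse 1 highest in both groups (26873509 and 25920509 counts) and mouse 3 next (18220467 and 17982612). Whether mice of one number shared a batch cannot be told from the labels.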

Additional observations from a re-analysis of the deposited data

Results flagged for a closer look

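In groups of 4 mice, the gap of the highest or lowest mouse to its neighbour was compared with the group's range, and 4 of the 28 groups examined were above Dixon's 95% critical value, where chance would give about 1 in 20, or 1.4. That rate holds for normally distributed values, and the groups were not all on one scale, so the excess over 1.4 is not a result. Members were compared on linear CPM and lists on mean log2 CPM. Retnla in TTI-101 mice had a ratio of 0.952, because mouse 2 was at 1139 CPM and the next highest at 134 CPM. Gpnmb in Control mice had a ratio of 0.841, with mouse 1 at 50.7 CPM and the next at 20.5 CPM. On log2 CPM both ratios are smaller and neither is above the critical value. Retnla in TTI-101 mice was at 10.15, 7.07, 6.39 and 6.38 log2 CPM from highest to lowest, and Gpnmb in Control mice at 5.67, 4.37, 4.08 and 3.90. The mean of the resident interstitial macrophage list in TTI-101 mice had a ratio of 0.876, with mouse 3 at 5.51 log2 CPM and the other 3 between 4.84 and 4.92. Total counts in Control mice had a ratio of 0.830, with mouse 1 at 26873509 and the others between 16446481 and 18220467. No group difference in Retnla or Gpnmb passed an adjusted p of 0.05 in edgeR with or without the mouse named.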

How the results depend on the processing

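The number of members at an adjusted p under 0.05 was 0 under all 15 alternatives, and at an unadjusted p under 0.05 it ranged from 0 to 1 as mice were left out, the 1 being Gpnmb without Control mouse 1, Spp1 without Control mouse 2 or Retnla without TTI-101 mouse 2. The number of all genes at an unadjusted p under 0.05 was 1849 with no filter and 422 to 2498 as mice were left out (422 without TTI-101 mouse 3, 2498 without TTI-101 mouse 2, 2393 without Control mouse 1, 531 without Control mouse 4 and 711 without TTI-101 mouse 1). At an adjusted p under 0.05 it was 4 in DESeq2 and 0 to 1 as mice were left out. The median log2 fold change of the members stayed below 0 throughout, from -0.39 to -0.03. With a replicate block 1298 genes had an unadjusted p under 0.05, with 0 members among them, and 0 genes passed after adjustment. Not every mouse correlated best with its own number. The log2 fold change of Arg1 ran from -0.91 to 0.17 as mice were left out, and that of Mgl2 from -0.13 to 0.10, and Mgl2 was 0.014 with library totals. Relative to the core list, leaving out mice gave -0.54 to 0.44 for Arg1, -0.29 to 0.011 for Mrc1, -0.46 to 0.19 for Cd163 and -0.026 to 0.22 for Mgl2. Mgl2 was -0.29 against Cd68, Adgre1 and Csf1r alone, which lowered the values of all 9 members. Against the lung epithelium list, a reference chosen after seeing the data, Arg1 (0.19), Mrc1 (0.15), Cd163 (0.13) and Folr2 (0.014) turned positive. The cause of these sign changes was not tested. Relative to the core list, Spp1, Gpnmb and Trem2 each passed an exact p of 0.05 without 1 mouse, as given above. Every tested member was tried with each mouse left out in turn, and these p-values were not adjusted for that number of tests. The 4 mice per group and the spread between them limit what could be detected for Retnla, Arg1 and Spp1, and the low counts limit Folr2 and Il10.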
